A study of Mus musculus with 15 samples.

Results

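The 8 genes described here encode chains, partners and the main regulator of the major histocompatibility complex (MHC) of the mouse, called H2, and they were followed through the oocytes of a lattice study. They were a given list of MHC and antigen presentation genes: the class II genes H2-Aa, H2-Ab1, H2-Eb1, Cd74 and Ciita and the class I genes H2-K1, H2-D1 and B2m. All 8 were present among the 53700 genes of the count tables. H2-Aa was chosen by its measured fold changes between knockout and heterozygote, which lay in opposite directions in the study's mutant lines, so its levels are given as a description, without a test.

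RNA came from germinal vesicle (GV) oocytes, fully grown oocytes arrested before the first meiotic division, with 15 oocytes to a library. The Padi6 line was on an FVB/N background, where 3 replicates were heterozygous (het, Padi6 +/-) and 3 were knockouts (KO, Padi6 -/-). The Tle6 line was on a C57BL/6J background, where 2 replicates were het (Tle6 +/-) and 4 were KO (Tle6 -/-). No group labelled wild-type by genotype was analysed here. The controls are heterozygotes by title and genotype, while a short name within their titles has WT, and the genotype was followed. Strain, line and targeted gene changed together between the lines. The sources used here do not give the age and number of the females, which replicates shared an animal or the deleted part of each gene. PADI6 belongs to the peptidylarginine deiminases and TLE6 to the subcortical maternal complex. Both are needed for the cytoplasmic lattices of the oocyte, and the KO comparisons ask which transcripts differ without them.

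MHC class I molecules are made of a heavy chain, such as the products of H2-K1 and H2-D1, bound to beta-2 microglobulin, the product of B2m, and they show peptides from inside the cell on the surface of most nucleated cells. Class II molecules are pairs of an alpha and a beta chain, of which the H2-Aa and H2-Ab1 products form one, and are known mainly from dendritic cells, macrophages and B cells. CD74, the invariant chain, guards the class II groove until a peptide is loaded, and CIITA is the coactivator that class II transcription in immune cells depends on. The H2 region is highly variable between strains: C57BL/6J, the strain of the reference genome, carries haplotype H2b and FVB/N carries H2q, so reads of the FVB/N oocytes were aligned to another haplotype's sequence.

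Promoters of class I and class II genes share a module bound by the RFX complex, by CREB or ATF factors at its X2 box and by the NF-Y complex at its Y box, and CIITA or its class I relative NLRC5 acts through those proteins. The sequences of 5 members are shown because their values differed widely while their promoters carry the same letters. Each run is the 180 bases that end 1 base before the RefSeq transcription start, 5′ to 3′ on the gene's strand, from RefSeq on GRCm38.p6. For H2-K1, which had 2 such starts, the first listed was used, and distances to the start depend on that choice. Capitals mark TGANG, a part of the X2 box, the Y box core ATTGG 18 to 22 bases after it, the kappaB site GGGATTCCC in H2-K1 and H2-D1, and the interferon response element core GAAANNGAAA in B2m.
H2-Aa, chr17:34287824-34288003, minus strand: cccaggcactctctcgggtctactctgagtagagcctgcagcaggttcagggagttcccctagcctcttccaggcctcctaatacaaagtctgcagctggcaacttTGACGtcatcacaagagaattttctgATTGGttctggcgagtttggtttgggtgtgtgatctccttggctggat
H2-Eb1, chr17:34305687-34305866, plus strand: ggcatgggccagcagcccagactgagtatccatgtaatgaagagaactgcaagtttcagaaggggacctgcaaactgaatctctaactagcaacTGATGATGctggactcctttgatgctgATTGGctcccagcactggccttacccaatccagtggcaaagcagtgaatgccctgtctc
H2-K1, chr17:34000348-34000527, minus strand: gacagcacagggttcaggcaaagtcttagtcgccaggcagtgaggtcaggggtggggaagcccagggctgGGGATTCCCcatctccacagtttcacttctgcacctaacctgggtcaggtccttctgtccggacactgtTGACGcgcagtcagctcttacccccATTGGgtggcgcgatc
H2-D1, chr17:35262914-35263093, plus strand: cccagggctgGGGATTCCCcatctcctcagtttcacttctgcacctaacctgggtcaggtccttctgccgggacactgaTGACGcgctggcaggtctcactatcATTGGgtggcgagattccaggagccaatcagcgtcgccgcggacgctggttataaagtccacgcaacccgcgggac
B2m, chr2:122147507-122147686, plus strand: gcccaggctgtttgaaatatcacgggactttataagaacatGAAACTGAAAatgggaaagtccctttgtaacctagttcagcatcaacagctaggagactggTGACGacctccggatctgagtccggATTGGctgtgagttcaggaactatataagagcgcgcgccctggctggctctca

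All 5 windows shown held TGANG and ATTGG at that spacing, and in H2-Eb1 a pair of overlapping TGANG matches shared 1 ATTGG. Searched on both strands, the spaced pair was in 309 of 32851 promoter windows of the same length (0.941%). GGGATTCCC was in 0.18% of the windows and GAAANNGAAA in 2.01%. Only these letters were searched, so other forms of the sites stay in lower case, in H2-K1 and H2-D1 too. The letters ATTGG alone were in 27.5% of windows and TGANG alone in 74.4%. The letters and the spacing were chosen after these promoters had been read, so the shares describe how common they are and nothing more. The windows are of the C57BL/6J reference, and the FVB/N sequence was not analysed here. H2-Ab1 and Ciita had no entry in the promoter table. Cd74 was left out of the member search, so whether its window holds the pair is not known here.

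Gene counts per library ran from 30100177 to 74947533, with a median of 50524234. The targeted genes followed the labels. Padi6 was at 1737 to 1852 CPM (counts per 1000000 gene counts of a library) in Padi6 het and 19.3 to 26.6 CPM in Padi6 KO, and Tle6 at 234 to 600 CPM in the Tle6 het libraries and 61.5 to 98.2 CPM in Tle6 KO. For het replicates 1 and 2 and KO replicate 4 of the Tle6 line there were pairs of technical libraries, named 1A, 1B, 2A, 2B, 4A and 4B here, which were summed. Log2 CPM of such pairs correlated with r = 0.999 and 0.998 over 13298 genes for het 1 and KO 4 but with 0.938 for het 2, whose libraries disagreed on several members. Tle6 values are for this reason repeated with library 2A or 2B left out. All 15 listed oocyte genes, among them Zp3, Gdf9 and Bmp15, had at least 1 CPM in 1 library or more. Summed, they were at 22043 to 23700 CPM in Padi6 het, 21469 to 24674 in Padi6 KO and 16982 to 19262 in Tle6 KO. Tle6 het libraries 1A, 1B, 2A and 2B had 16620, 16499, 22787 and 12888 CPM, so 2B was the lowest of all.

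H2-Aa, the class II alpha chain, was the one class II member with more than a trace of reads, and its KO levels lay above het in the Padi6 line and below it in the Tle6 line. In Padi6 het replicates 1, 2 and 3 it was at 15.0, 8.69 and 14.5 CPM, and in Padi6 KO replicates 1, 2 and 3 at 32.1, 27.2 and 26.6 CPM. Every Padi6 KO replicate was above every Padi6 het replicate, with means of 28.7 ± 3.04 and 12.7 ± 3.51 CPM (SD, n = 3 each). The fitted log2 fold change was 1.19 ± 0.20 (SE). Leaving out any 1 replicate moved it between 0.97 and 1.32.

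The order was the other way in the Tle6 line. Its het libraries 1A, 1B, 2A and 2B had 28.7, 26.8, 4.20 and 20.3 CPM of H2-Aa. Tle6 KO replicates 1, 2 and 3 had 2.15, 1.79 and 1.20 CPM, and KO libraries 4A and 4B 1.84 and 1.46 CPM. Every KO library was below every het library, and 2A was the het library nearest to them. Group means were 21.3 ± 9.36 CPM in het (SD, n = 2) and 1.71 ± 0.394 CPM in KO (n = 4).

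The fitted log2 fold change of H2-Aa in the Tle6 line was -3.78 ± 0.33. It was -4.06 ± 0.29 without library 2A and -3.37 ± 0.63 without library 2B. In bulk libraries of this kind, fewer cells of a type and less RNA per cell cannot be told apart. The difference between the lines' fold changes was -5.02 ± 0.41 on the log2 scale, which was not tested because the opposite directions had chosen the gene.

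**Figure D1:**
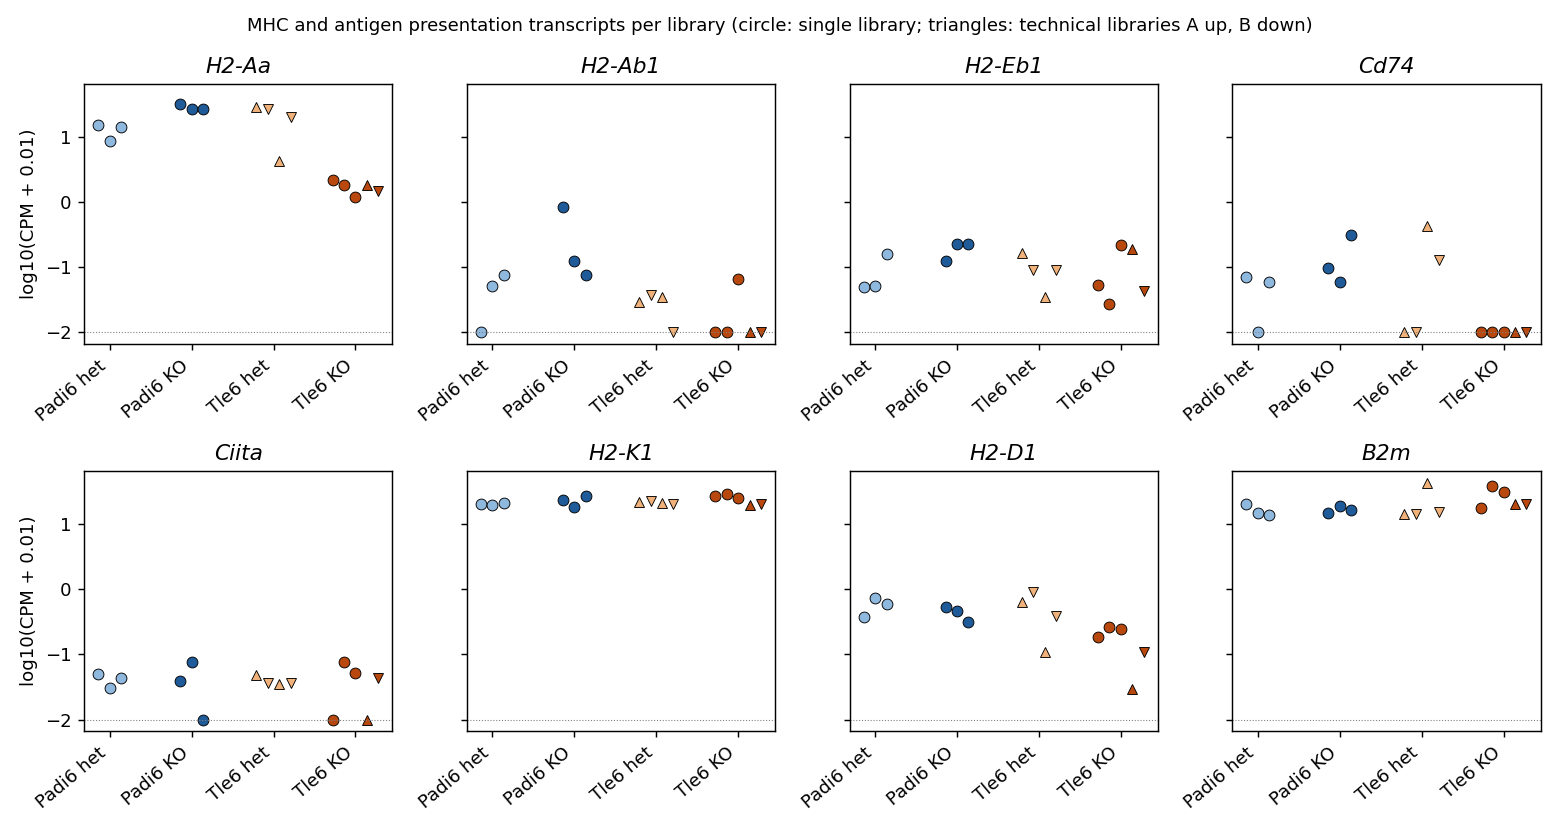
Level of each of the 8 members as log10(CPM + 0.01) in the 15 libraries by group, with circles for single libraries and triangles for technical libraries A (up) and B (down), the dotted line marking 0 counts. H2-Aa is at 26.6 to 32.1 CPM in Padi6 KO and at 1.20 to 2.15 CPM in Tle6 KO, while H2-K1 lies between 18.4 and 29.8 CPM in all libraries.

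By group mean, H2-Aa was lowest in Tle6 KO, followed by Padi6 het, Tle6 het and Padi6 KO. Neighbours in that order were apart only between Tle6 KO and Padi6 het. The replicates of Padi6 het and Tle6 het overlapped, as did those of Tle6 het and Padi6 KO. Tle6 het against Padi6 het, which compares the strains' control oocytes, gave a log2 difference of 1.03 ± 0.31 for H2-Aa, and 0.59 without library 2B. Per exon length, as length-corrected shares of all counts (TPM), the level of H2-Aa was 10.97 ± 2.96 in Padi6 het, 24.4 ± 2.36 in Padi6 KO, 19.3 ± 8.29 in Tle6 het and 1.48 ± 0.349 in Tle6 KO.

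The partners that a class II molecule needs were nearly absent. H2-Ab1, the beta chain that pairs with the H2-Aa product, had 82 counts over all 15 libraries, against 11803 for H2-Aa, and was at 0 in 6 libraries. Padi6 het replicates 1, 2 and 3 had 0, 2 and 4 counts, and Padi6 KO replicates 59, 7 and 3. The 59 counts of KO replicate 1 (0.840 CPM) made up most of the gene's reads in the whole study, and the groups overlapped. The Tle6 het libraries had 1, 1, 1 and 0 counts, and KO replicate 3 had 4 counts while every other KO library had 0.

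H2-Eb1, the beta chain of the second class II pair, had 90 counts in all and no library above 0.219 CPM. Its partner gene is a pseudogene, H2-Ea-ps, in C57BL/6J, which lacks that pair at the surface. H2-Eb1 was at 0.0770 ± 0.0626 CPM in Padi6 het and 0.182 ± 0.059 CPM in Padi6 KO (SD, n = 3 each), with overlap between the replicates. It was at 0.0914 ± 0.0437 CPM in Tle6 het (n = 2) and 0.0978 ± 0.0855 CPM in Tle6 KO (n = 4). An antisense gene, Gm20513, overlaps it, and without a stated strand setting their reads cannot be told apart.

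Cd74, the invariant chain, had 55 counts and was at 0 in 8 libraries. Padi6 het replicates had 3, 0 and 3 counts and Padi6 KO replicates 6, 3 and 14. Tle6 het libraries 1A and 1B had 0 counts, 2A and 2B had 17 and 9, and all 5 KO libraries had 0. A count of 0 over the Tle6 KO group allows up to 0.0116 CPM. All Cd74 reads of Tle6 het came from replicate 2, so the groups shared the value 0.

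Ciita, the class II coactivator, had 25 counts in all, at most 4 in a library and 0 in 3 libraries. Its group means were 0.0314 ± 0.0098 CPM in Padi6 het, 0.0314 ± 0.0329 in Padi6 KO, 0.0296 ± 0.0053 in Tle6 het and 0.0303 ± 0.0302 in Tle6 KO. None of these 4 groups stood apart from another. Part of Ciita is overlapped by Dexi on the other strand. H2-Ab1, H2-Eb1, Cd74 and Ciita had too few counts for a test within either line, and differences of a few reads were not detectable at this depth.

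**Figure D2:**
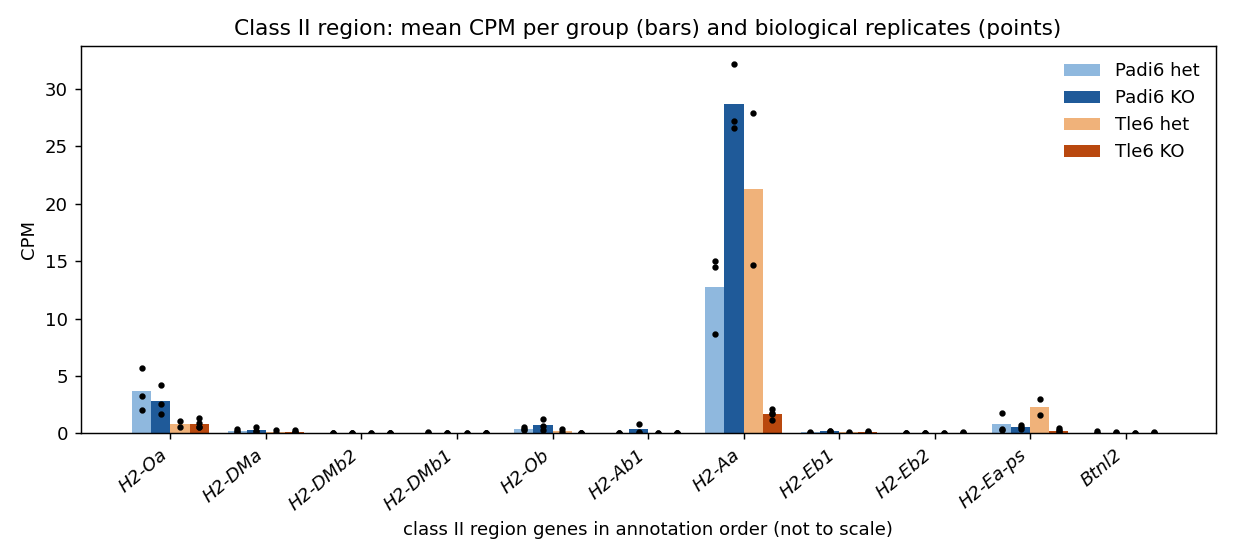
CPM, not corrected for gene length, of the 11 genes of the class II region in annotation order (not to scale), with bars for group means and points for biological replicates. The bars of H2-Aa reach 12.7, 28.7, 21.3 and 1.71 CPM, and those of its neighbours H2-Ab1 and H2-Eb1 at most 0.340 CPM.

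H2-Aa lies between H2-Ab1 and H2-Eb1 on chromosome 17, and no annotated gene overlaps it. Per exon length, the levels of H2-Ab1 and H2-Eb1 in Padi6 KO were 0.426 and 0.304 TPM beside 24.4 TPM for H2-Aa, and in Tle6 KO 0.0177 and 0.166 TPM beside 1.48 TPM. The neighbours were thus far below H2-Aa in the group where it was highest and in the group where it was lowest. Farther along the region, H2-Ea-ps had means of 2.32 ± 0.968 CPM in Tle6 het and 0.242 ± 0.184 CPM in Tle6 KO, with 2.93, 3.10, 0.0982 and 2.47 CPM in het libraries 1A, 1B, 2A and 2B. Its log2 fold change between Tle6 KO and het was -3.43 ± 0.78, which did not pass (edgeR's quasi-likelihood test, adjusted p = 0.0684), while DESeq2 called it. In the Padi6 line H2-Ea-ps was at 0.802 ± 0.836 CPM in het and 0.542 ± 0.179 CPM in KO. Het library 2A was thus low for both H2-Aa and H2-Ea-ps.

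H2-Ob, a chain of the H2-O dimer that restrains peptide loading on class II, differed in its fold changes between the lines. It was the only class II gene that passed of the 14 tested without H2-Aa, where 4.32% of all genes passed. It had means of 0.396 ± 0.108 CPM in Padi6 het and 0.740 ± 0.488 in Padi6 KO (n = 3 each), and 0.237 ± 0.178 in Tle6 het (n = 2) and 0.0320 ± 0.0241 in Tle6 KO (n = 4). The difference of log2 fold changes was -4.01 ± 0.93 (edgeR's quasi-likelihood test, Benjamini-Hochberg adjusted p = 0.0302). Of the 52 counts in Tle6 het, most came from library 2B, at 0.547 CPM against 0.0246 CPM in 2A. Without library 2B the difference was -2.26 and without het replicate 2 -2.87, and neither passed (edgeR adjusted p = 0.323 and 0.169). H2-Ob kept its call in 9 of 18 alternatives. With 1 replicate left out, it was also lost without Padi6 KO replicate 2, Tle6 KO replicate 3 or 4, or any 1 Padi6 het replicate.

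H2-K1 and B2m were present in every library, H2-D1 was scarce, and none of these 3 class I members passed a test. H2-K1, a classical class I heavy chain, was at 20.2, 19.7 and 21.6 CPM in Padi6 het replicates 1, 2 and 3 and at 23.4, 18.4 and 26.8 CPM in Padi6 KO replicates. Het libraries 1A, 1B, 2A and 2B of the Tle6 line had 21.96, 22.8, 21.3 and 20.4 CPM. Tle6 KO replicates 1, 2 and 3 had 27.5, 29.8 and 25.3 CPM and libraries 4A and 4B 19.6 and 20.9 CPM. The groups overlapped in both lines.

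The log2 fold change of H2-K1 was 0.18 in the Padi6 line (95% interval -0.17 to 0.53, edgeR's quasi-likelihood test, Benjamini-Hochberg adjusted p = 0.592). For Tle6 it was 0.10 (-0.38 to 0.58, edgeR adjusted p = 0.842). The fold changes of the lines differed by -0.13 (-0.69 to 0.44, edgeR adjusted p = 0.832). Het oocytes of the strains differed by 0.38 (-0.06 to 0.81, edgeR adjusted p = 0.179), higher in C57BL/6J. Doublings of H2-K1 thus lay outside each of these intervals, for counts of reads that aligned to 1 place only. The interval between het oocytes does not cover any reads lost when FVB/N oocytes were aligned to another haplotype.

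B2m, the light chain, was at 20.9, 15.0 and 13.7 CPM in Padi6 het replicates and 14.8, 18.9 and 16.6 CPM in Padi6 KO replicates. The Tle6 het libraries 1A, 1B and 2B had 14.6, 14.7 and 15.3 CPM but library 2A had 43.4. Tle6 KO replicates 1, 2 and 3 had 18.1, 39.2 and 31.5 CPM, and libraries 4A and 4B 20.4 and 20.8 CPM. Every Tle6 KO library was above 3 of the 4 het libraries and below library 2A.

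The log2 fold change of B2m was 0.04 in the Padi6 line (95% interval -0.36 to 0.44, edgeR's quasi-likelihood test, adjusted p = 0.933) and 0.28 for Tle6 (-0.50 to 1.06, edgeR adjusted p = 0.701). The sign in the Tle6 line depended on het replicate 2: without library 2A the value was 0.59 and without 2B -0.11, and it did not pass in either (edgeR adjusted p = 0.31 and 0.942). Fold changes differed between the lines by 0.19 (-0.69 to 1.08, edgeR adjusted p = 0.838). In het oocytes B2m was 0.58 higher in the Tle6 line on the log2 scale (-0.08 to 1.25, edgeR adjusted p = 0.179). Patl2 overlaps B2m on the other strand, so some of these reads may belong to either gene.

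H2-D1, the other classical heavy chain, was scarce beside H2-K1. It had 312 counts in all libraries together, where H2-K1 had 18134. Per exon length its level was 0.716 ± 0.242 TPM in Padi6 het, 0.540 ± 0.136 in Padi6 KO, 0.686 ± 0.427 in Tle6 het and 0.227 ± 0.116 in Tle6 KO, against 22.9, 25.2, 25.2 and 28.8 TPM for H2-K1 in the same order. B2m had 62.9, 63.1, 79.8 and 104 TPM. By length, B2m was thus the most abundant member in all 4 groups, and H2-K1 exceeded H2-Aa in 4 of 4 groups, in Padi6 KO and Tle6 het by less than the SD of H2-Aa.

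H2-D1 was at 0.361, 0.728 and 0.597 CPM in Padi6 het replicates and 0.527, 0.459 and 0.306 CPM in Padi6 KO replicates, which overlapped (log2 fold change -0.36, 95% interval -1.26 to 0.55, edgeR's quasi-likelihood test, adjusted p = 0.696). Tle6 het replicate 1 had 0.745 CPM and het replicate 2 had 0.285, and the 4 KO replicates lay between 0.0496 and 0.253 CPM, below both. The log2 fold change in the Tle6 line was -1.69 ± 0.67 (95% interval -3.20 to -0.17, edgeR adjusted p = 0.222). Its value across the alternatives ran from -2.24 to -0.90 without passing in any. H2-K1, H2-D1 and their relatives in the H2-Q and H2-T groups are alike in sequence. Reads that aligned to several places, 12.1 to 14.5% of the reads of a library, were set apart in the deposited tables, so the split between such genes is uncertain.

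Of the 7 members other than H2-Aa, 3 had enough counts for a test within each line, and 0 of them passed in either, where 2.41% of 18228 genes passed for Padi6 (1.69% higher and 0.724% lower) and 1.62% of 20276 for Tle6 (0.587% higher and 1.04% lower). For the difference between the lines 5 were tested and 0 passed (4.32% of 21392 genes passed), and for Tle6 het against Padi6 het 0 of 5 passed (28.5% of the same genes). Before adjustment, edgeR put H2-D1 under 0.05 in the Tle6 line and Cd74 in the difference (edgeR adjusted p = 0.0931), and none of the other tested members in any comparison. The fitted size of the Cd74 difference is not given because the Tle6 KO group was at 0. DESeq2 called 0 of these members in each comparison, and gave no adjusted p for Cd74 and H2-Eb1 in the difference. The members that were tested are those with reads, and the shares are printed for scale only.

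**Figure D3:**
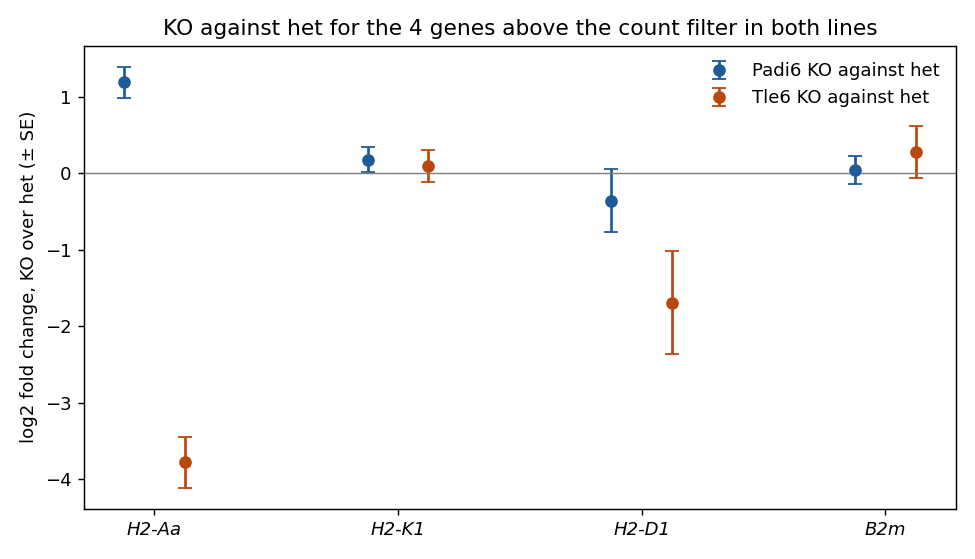
Log2 fold change of KO over het with its SE for the 4 genes with enough counts in both lines, with blue for Padi6 (3 against 3 replicates) and orange for Tle6 (4 against 2). H2-Aa lies at 1.19 and -3.78, while the points of H2-K1 and B2m lie within 0.3 of 0 in both lines.

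Genes that supply, load or regulate MHC molecules were taken from 4 lists of 79 genes without H2-Aa. In the Padi6 line 45 had enough counts and 0 passed the test in either direction, 9 having an unadjusted p under 0.05 (18.6% of all genes had), with a median log2 fold change of -0.04 beside -0.006 for all genes tested. DESeq2 called 1, Kat2b. Of 52 tested in the Tle6 line, 0 were higher and 1 was lower, 14 having an unadjusted p under 0.05 (19.0% of all genes), at a median of -0.08 beside 0.062 for all genes. The gene that passed was Nfya, a subunit of the NF-Y complex that binds the Y box shown in the promoters above.

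Nfya was at 470 ± 1.14 CPM in Padi6 het and 468 ± 36.1 CPM in Padi6 KO (SD, n = 3 each). Between Tle6 het and KO it fell from 1327 ± 14.2 CPM (n = 2) to 718 ± 100 CPM (n = 4), a log2 fold change of -1.04 ± 0.20 (edgeR's quasi-likelihood test, Benjamini-Hochberg adjusted p = 0.0408). The near-equal het values hid a split: het libraries 1A, 1B, 2A and 2B had 1332, 1344, 640 and 1684 CPM. Library 2A was within the range of the KO libraries, 623 to 857 CPM. Without library 2B the fold change was -0.55 and did not pass (adjusted p = 0.526), and leaving out any 1 replicate other than KO replicate 1 also ended the call, with adjusted p between 0.0939 and 0.141.

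The difference between the lines was tested for 55 of the listed genes, of which 0 were higher and 3 lower (1.31 and 3.01% of all genes), with a median of -0.15 beside 0.021. They were Nfya (-1.10 ± 0.22, edgeR adjusted p = 0.0141), H2-Ob and Kat2b (-2.72 ± 0.57, edgeR adjusted p = 0.0191). Kat2b, which encodes a histone acetyltransferase known to bind CIITA, was at 1.89 ± 0.423 CPM in Padi6 het, 3.39 ± 0.573 in Padi6 KO, 0.973 ± 0.275 in Tle6 het and 0.305 ± 0.183 in Tle6 KO. Its KO mean lay above the het mean in Padi6 and below it in Tle6, but neither fold change passed within a line (edgeR adjusted p = 0.112 and 0.125). Kat2b also lost its call in the difference without Padi6 het replicate 2 or Padi6 KO replicate 3. Without library 2B, 0 of the 3 passed.

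**Figure D4:**
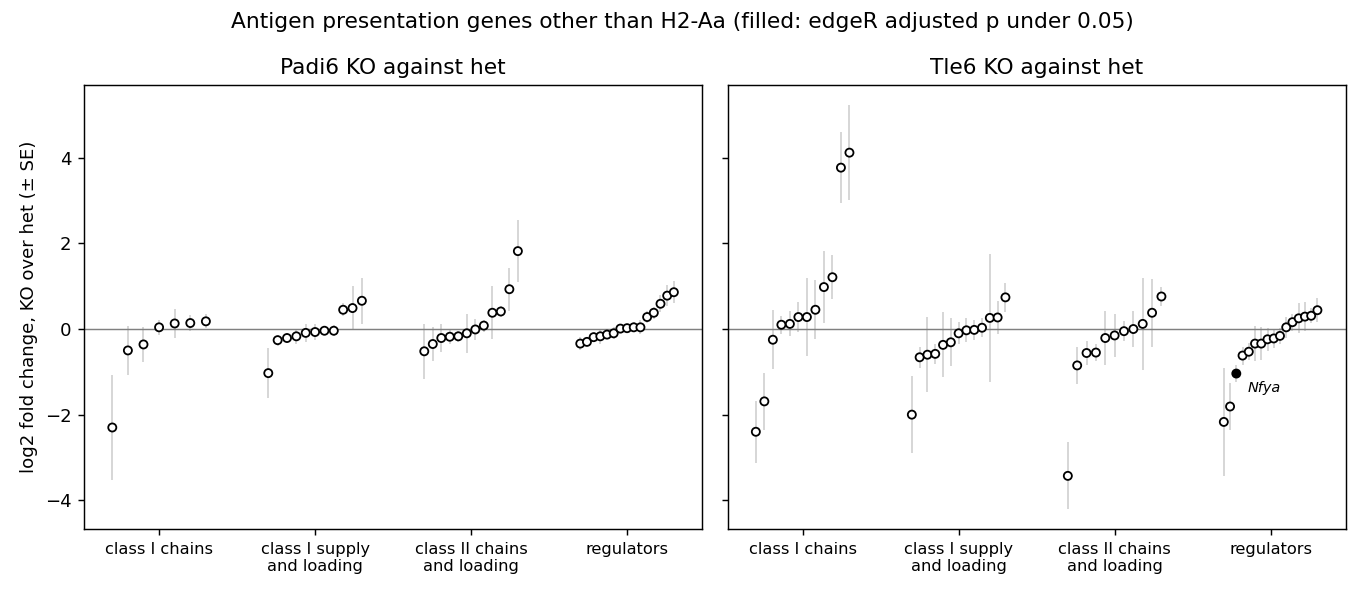
Log2 fold change of KO over het with its SE for each tested gene of the 4 antigen presentation lists without H2-Aa, ordered within a list, 45 genes for Padi6 and 52 for Tle6, filled where the adjusted p was under 0.05. The 1 filled point is Nfya at -1.04 in the Tle6 line.

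By list, 0 of 12 tested class I chains and class I-like genes passed in the Tle6 line, 0 of 13 genes of class I peptide supply and loading, 0 of 11 class II genes and 1 of 16 regulators. Of all genes tested in that line, 1.62% passed. H2-T23, a nonclassical class I gene, had 3 counts in all of Tle6 het and 64 in Tle6 KO, with means of 0.0142 ± 0.00440 and 0.242 ± 0.0914 CPM, and did not pass (edgeR adjusted p = 0.0621). The immunoproteasome genes Psmb8 and Psmb9 and the peptide transporter genes Tap1 and Tap2 were at most at 1.67, 0.182, 0.509 and 0.838 CPM in any library. The 1.67 CPM of Psmb8 was again in het library 2A, against at most 0.547 CPM elsewhere. Nlrc5, the class I coactivator, was at 0.628 and 0.802 CPM in Tle6 het libraries 1A and 1B and at most at 0.197 CPM in the others.

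Between the strains' het oocytes, 18 of 55 tested genes of these lists passed, 8 higher and 10 lower in the Tle6 line, where 15.9% of all genes were higher and 12.7% lower. Those that were higher included Nfya (1.81 ± 0.17), Nfyb (1.22), the cathepsin gene Ctsl (2.38), the chaperone gene Canx (1.31) and March8 (1.72), whose product removes class II from the surface. Lower ones included Ctsd (-0.96), Ctsb (-0.75), Cd40 (-2.68), Cd1d1 (-0.81) and, beyond the 5 with the smallest p in its list, H2-Oa (-1.85). Strain, line, library series and alignment to 1 haplotype cannot be told apart in these values. None of the 5 members tested between het groups was among them.

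Interferons are the main inducers of these genes elsewhere. Of 33 listed interferon signalling and response genes, 19 were tested in the Padi6 line, with a median of 0.22 beside -0.006 for all genes. Of these, 0 were lower and 1 was higher, where 0.724% of all genes were lower and 1.69% higher. It was Irf8, a transcription factor of myeloid and B cells, which rose from 30.8 ± 4.82 to 58.1 ± 3.25 CPM (n = 3 each, log2 fold change 0.94 ± 0.13, edgeR's quasi-likelihood test, adjusted p = 0.0111). The call was lost when Padi6 het replicate 3 was left out (adjusted p = 0.0584) and when the spread was shared by both lines (0.107). Among Tle6 oocytes Irf8 was at 31.6 ± 6.51 CPM in het and 29.0 ± 7.77 CPM in KO, and its fold changes differed between the lines by -1.25 ± 0.32 (edgeR adjusted p = 0.0449). That difference lost its call in 12 of 18 alternatives, among them without library 2B and with any 1 replicate left out other than Tle6 KO replicates 1 and 4. Of 20 interferon genes tested in the Tle6 line, Irf3 was higher (1.23 ± 0.24) and Rsad2 lower (-5.04 ± 0.84). Of all genes, 0.587% were higher and 1.04% lower, and the list's median was 0.05 beside 0.062. Irf3 lost its call in 9 of 13 alternatives, with any 1 replicate, library 2A or library 2B left out among them. Rsad2 lost it in 6 of 12, with any 1 replicate left out among them other than KO replicate 1. Rsad2, which encodes the antiviral protein viperin, had 25 counts in Padi6 het, 132 in Padi6 KO, 101 in Tle6 het and 4 in Tle6 KO. Its fold changes differed between the lines by -7.40 ± 1.35 (edgeR adjusted p = 0.009), a call kept in 18 of 18 alternatives. Between het oocytes, 2 of 22 interferon genes were higher in the Tle6 line, Gbp5 (2.00 ± 0.52) and Mx1 (1.47 ± 0.45). There 2 were lower, Irf3 (-1.04 ± 0.28) and Tyk2 (-0.70 ± 0.24), where 15.9% of all genes were higher and 12.7% lower.

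Of 81 listed genes that share the H2 region but have no part in antigen presentation, 58 were tested in the Padi6 line. Tubb5 was higher there (0.43 ± 0.10) and Zbtb12 lower (-1.10 ± 0.24), where 1.69% of all genes were higher and 0.724% lower. Each lost its call in 7 of 11 alternatives, with any 1 replicate left out among them. For Tle6, 63 were tested and 3 were lower, Rgl2 (-2.38 ± 0.34), Ppp1r10 (-1.34 ± 0.23) and Nfkbil1 (-3.69 ± 0.65). In that line 0 were higher, at a median of 0.22 beside 0.062, where 0.587% of all genes were higher and 1.04% lower. Rgl2 lost its call in 1 of 13 alternatives, without het replicate 1, and Nfkbil1 in 8, with any 1 replicate or library 2B left out among them. Ppp1r10 lost it in 6, among them without het replicate 1, KO replicate 2, 3 or 4, or library 2B. In the difference between the lines 2 of 64 were lower, Rgl2 (-2.38 ± 0.39, a call kept in 18 of 18 alternatives) and Ppp1r10 (-1.63 ± 0.28, lost in 1, without library 2B). Of all genes, 3.01% were lower in that difference and 1.31% higher. Between het oocytes, 2 of 64 were higher and 15 lower in the Tle6 line, where 15.9% of all genes were higher and 12.7% lower, with a median of -0.52 beside -0.03. Among the lower ones Skiv2l (-1.97 ± 0.36) and Pou5f1 (-1.41 ± 0.28) kept their calls in 17 of 17 alternatives.

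Class II genes are textbook markers of blood-borne immune cells, so the markers of such cells were read beside H2-Aa. Of 24 blood and immune markers, 19 were under 1 CPM in every library. Ptprc, which encodes the pan-leukocyte protein CD45, was at most at 0.135 CPM, the dendritic cell gene Itgax at 0.123 and the B cell gene Cd79a at 0.0602. The list's summed level was 63.4 to 77.1 CPM in Padi6 het, 66.2 to 84.5 in Padi6 KO, 160 to 266 in Tle6 het and 162 to 244 in Tle6 KO. Most of it was Ms4a1, at 53.7 to 252 CPM, and the other 23 genes summed to 9.11 to 10.8, 7.64 to 10.8, 4.24 to 14.8 and 12.1 to 22.6 CPM in the same order. The ranges of that sum overlapped between KO and het in both lines. Hbb-bs and C1qc were at 0 in every library. Markers of granulosa and cumulus cells, the companions of the oocyte in its follicle, summed to 89.4 to 137 CPM over the libraries, with overlap between KO and het in both lines. Of 13 tested in the Padi6 line, 1 was higher and 0 were lower, at a median of -0.42, and 0 of 15 passed in the Tle6 line, at a median of 0.14.

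The granulosa and cumulus gene that rose in Padi6 KO, as H2-Aa was higher there, was Has2, the hyaluronan synthase gene of the cumulus matrix. Padi6 het replicates 1, 2 and 3 had 3.83, 2.54 and 1.36 CPM of Has2 and KO replicates 11.40, 11.35 and 11.7 CPM, without overlap (log2 fold change 2.19 ± 0.31, edgeR's quasi-likelihood test, Benjamini-Hochberg adjusted p = 0.0109). The call was kept in 11 of 11 alternatives. Other genes of that list had lower values in Padi6 KO, but 0 passed as lower, where 0.724% of all genes did. Among them Cyp11a1 was at 5.36 to 23.4 CPM in het and 2.97 to 3.98 CPM in KO. Fshr was at 0.249 to 1.08 and 0.109 to 0.148 CPM, and Amhr2 at 0.301 to 0.894 and 0 to 0.153 CPM. In the Tle6 line Has2 was at 1.35 to 5.32 CPM in the het libraries and 1.32 to 3.23 CPM in the KO libraries, with overlap. Its fold changes differed between the lines by -2.86 ± 0.58 (edgeR adjusted p = 0.0159), but not without library 2B (-1.83, adjusted p = 0.112) or het replicate 2 (-2.06, adjusted p = 0.0849). Inha, the inhibin alpha gene, differed the other way, by 4.63 ± 1.05 (edgeR adjusted p = 0.0274), and lost that call in 7 of 18 alternatives, among them without library 2B, Tle6 het replicate 2, Padi6 het replicate 2 or 3, or Padi6 KO replicate 1 or 3.

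The 10 markers of theca and stroma cells, which surround the follicle, were scarce, and their sum lay lower in KO than in het in the Tle6 line, as H2-Aa did. Their summed level was 4.03 to 6.67 CPM in the Tle6 het libraries, lowest in 2A, and 2.69 to 3.84 CPM in the KO libraries, without overlap. Of 7 tested, 0 passed, 5 had an unadjusted p under 0.05 (19.0% of all genes had), and the median log2 fold change was -1.45. Among them Pdgfra, a growth factor receptor gene, was at 1.75, 2.14, 1.35 and 3.48 CPM in het libraries 1A, 1B, 2A and 2B and at 0.498 to 1.00 CPM in the KO libraries. Ptch1 of the same list went the other way, at 0.114, 0.214, 0.344 and 0.507 CPM in those het libraries and 0.731 to 2.31 CPM in the KO libraries. Acta2 means also lay higher in KO, at 0.0717 CPM in het and 0.139 CPM in KO. In the Padi6 line the list summed to 4.01 to 5.34 CPM in het and 2.61 to 5.54 CPM in KO, with overlap, and 0 of 5 passed. Endothelial markers overlapped between KO and het in both lines, and 0 of 4 passed in either. The part of these other cell types in the levels of H2-Aa was not tested.

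Genes whose level followed that of H2-Aa most closely were looked for among 11461 protein-coding genes with a mean of at least 1 CPM, by Pearson's r of log2 CPM over the 12 biological replicates. They were Musk (r = 0.960), Lekr1 (0.960), Erbb4 (0.958), Runx1t1 (0.956) and Muc15 (0.952), none of them on chromosome 17. Their replicates ranged from 0.041 to 0.395 CPM for Erbb4 in Tle6 KO and from 5.46 to 6.24 CPM in Padi6 KO, and from 37.7 to 44.9 and 65.7 to 78.3 CPM for Musk in the same groups. H2-K1 had r = -0.346 with H2-Aa and B2m -0.602. The replicates fall into 4 groups and 2 strains, so these values describe the order of the groups.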

How the data were processed

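Polyadenylated RNA of 15 libraries was made into libraries with a QIAseq FX kit for single cells, per the labels' protocols. The authors deposited whole-number counts of reads per gene for each library, not normalised, in tables of 53700 genes and 92 spike-in transcripts. The submitters' processing notes name bcl2fastq 2.20.0.422, cutadapt 2.8, STAR 2.7.8a, HTSeq 2.0.2 and the build mm39. Of the annotation release and the strand setting, nothing is given in the sources used here. Summary lines of the deposited counts held 5.39 to 7.29% of reads outside genes, 3.85 to 4.2% in overlapping genes and 12.09 to 14.51% with several alignments. These and the spike-ins stayed out of library sizes and tests. Symbols, gene types, exon lengths and neighbours came from GENCODE M21 on GRCm38, which matched 52093 identifiers and left 1607. As the files are on mm39, coordinates are given only for promoter sequences, on their own build.

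CPM are counts per 1000000 gene counts of a library. TPM were computed here from counts and summed exon lengths. Technical libraries were added, giving 12 biological replicates. Replicates are separate samples per the labels, which do not tie them to animals, so p-values speak only of the spread among these samples. After filterByExpr, edgeR 4.0.16 in R 4.3.3 ran its two-sided quasi-likelihood test (TMM, robust glmQLFit, glmQLFTest). The p-values of a comparison were adjusted by Benjamini and Hochberg over every gene in it, with 0.05 as the threshold. The lines were fitted separately, and the difference of KO effects and the het comparison in 1 fit of all 12 replicates. Common biological coefficients of variation were 0.203 (Padi6 line), 0.361 (Tle6 line) and 0.307 (both). Data were simulated with the same spread in every comparison, close to that of the Padi6 line and below those of the Tle6 line and of both. Recovery is thus likely overstated for Tle6 and for the difference. Changes were set only in genes above 1 CPM, so scarce members such as H2-D1 are not covered. On these data, log2 changes of 2 were recovered in 100% of genes in both lines, and changes of 1 in 76.2% for Padi6 and 63.2% for Tle6. For the difference between the lines, changes of 2 were recovered in 95.1% and changes of 1 in 14.4%.

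The members and all gene lists were chosen with earlier results of these data known. Genes beside the members were named from those a rule took: up to 5 called genes per list and comparison with the smallest p, and the 5 genes most like H2-Aa (TMM, prior count of 2). Not all genes it took are printed, so a list with no gene named can hold calls. H2-Ea-ps, H2-T23, H2-Oa, Psmb8, Psmb9, Tap1, Tap2, Nlrc5 and the cell markers were named after their values were seen. Alternatives were RLE size factors, no filter, DESeq2 1.42.0, a replicate block, a spread shared by both lines, each replicate left out in turn, and either library of Tle6 het replicate 2 left out.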

Additional observations from a re-analysis of the deposited data

Results flagged for a closer look

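H2-Ab1 in Tle6 KO had 1 replicate far from the others: KO replicate 3 had 4 counts (0.0550 CPM) and the other 3 replicates had 0, so the gap to the nearest replicate was 1.0 of the group's range, above the 95% limit for 4 samples. The limit's rate of about 1 flagged group in 20 is for continuous values. With 3 replicates at 0, any count in the other gives 1.0, so the flag here rests on 4 reads and carries no such rate.

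H2-Aa moved in opposite directions in the lines: each Padi6 KO replicate was above each Padi6 het replicate, and each Tle6 KO replicate below each Tle6 het replicate. The difference of log2 fold changes, -5.02 ± 0.41, was not tested, since the gene was listed for it.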

How the results depend on the processing

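H2-Aa kept its direction under every alternative run: 0.97 to 1.32 in the Padi6 line, -4.19 to -3.30 in the Tle6 line, and -5.39 to -4.53 for the difference. The gene was chosen for these directions in the same counts, so the ranges show only how far its values moved and lend the directions no support. Without a filter on low counts, 1 member passed in the Padi6 line (H2-Ab1, with most of its counts in KO replicate 1), 1 in the Tle6 line and 1 in the difference (Cd74 in both), and Cd74 also passed in the difference without Tle6 het replicate 1 (1 member). The range over replicates left out was 0 to 0 in each line and 0 to 1 for the difference.

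Called antigen presentation genes numbered 3 without a filter and 1 with DESeq2 in the Padi6 line. In the Tle6 line they numbered 7 without a filter, 5 with DESeq2, 10 with a spread shared by both lines, 0 without library B of het replicate 2, and 0 to 1 with a replicate left out. In the difference they numbered 5 without a filter, 0 without library B, and 1 to 5 with a replicate left out. For the het groups the count of 18 became 10 without library B and 8 to 17 with a replicate left out.

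Signs that turned belonged to uncalled values near 0 or to few reads. With a replicate left out, B2m ran from -0.07 to 0.25 in the Padi6 line, from -0.10 to 0.72 in the Tle6 line and from -0.18 to 0.67 in the difference, and H2-K1 from -0.26 to 0.02 in the difference. Between het groups H2-Eb1 ran from -0.04 to 1.42, Cd74 from -4.22 to 2.86 and H2-D1 from -0.63 to 0.69. Without library B, B2m was at -0.11 in the Tle6 line and -0.15 in the difference, and H2-D1 at -0.11 between het groups.

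Deviations of same-numbered replicates from their group means correlated with r = 0.105, 0.056 and 0.067 in the Padi6 line, each the highest for its number. Differently numbered pairs there ran from -0.077 to 0.016. In the Tle6 line, with 2 het replicates, their values mirror each other (0.143 and -0.143 for KO replicate 4), so the check cannot decide there. Whether same-numbered replicates are paired is thus not known. With the replicate block, 0 members passed in either line, antigen presentation calls became 0 in the Tle6 line, where Nfya was lost (edgeR adjusted p = 0.286), and 1 in the difference, where H2-Ob and Nfya were lost (0.0979 and 0.0549), and H2-K1 was at 0.05 in the difference. RLE scaling moved the median of all genes by at most 0.034 (log2). The causes of these shifts were not tested. Depth limits H2-Ab1, H2-Eb1, Cd74 and Ciita, at under 100 counts each over all libraries.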

Other observations

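Ms4a1, which encodes the B cell surface protein CD20, was at 53.7 to 252 CPM in these oocytes while Ptprc and Cd79a were at most at 0.135 and 0.0602 CPM. In Tle6 het oocytes it was higher than in Padi6 het oocytes by 1.95 ± 0.17 on the log2 scale (edgeR's quasi-likelihood test, Benjamini-Hochberg adjusted p = 4.73e-06), and 0 of the 6 tested blood and immune genes passed in either KO comparison.

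Het libraries 2A and 2B of the Tle6 line, technical libraries of 1 replicate by their label, differed in H2-Aa (4.20 and 20.3 CPM), B2m (43.4 and 15.3), Nfya (640 and 1684), H2-Ea-ps (0.0982 and 2.47) and Irf3 (11.6 and 3.06). For H2-Aa and Nfya 2A was nearer than 2B to the Tle6 KO libraries, while Tle6 itself was at 600 CPM in 2A and 234 in 2B, both above the 61.5 to 98.2 CPM of Tle6 KO. The other technical pairs had 28.7 and 26.8 CPM (het 1) and 1.84 and 1.46 CPM (KO 4) of H2-Aa.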
